A study of Saccharomyces cerevisiae with 4 samples.

Results

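The nuclear genes of the yeast respiratory chain and ATP synthase were followed here, gene by gene, in haploid and tetraploid cells. They were 43 of the 6348 open reading frames (ORFs) with reads in any library, chosen by systematic name: the NADH dehydrogenases NDI1, NDE1 and NDE2, the succinate dehydrogenase subunits SDH1 to SDH4, the cytochrome bc1 complex, the cytochromes c CYC1 and CYC7, cytochrome oxidase subunits from COX4 to COX13, and the ATP synthase subunits with the inhibitors INH1 and STF1. Poly(A) RNA came from 2 cultures of a haploid MATa strain and 2 cultures of an isogenic tetraploid MATaaaa strain, all of the Sigma 1278b background with the alleles ura3-52, leu2::hisG and his3::hisG. All cultures were grown at 30°C in synthetic complete medium with 2% glucose and collected in mid-log phase. The labels give each culture the letter A or B, and the haploid and tetraploid of a letter make up a pair (pair A, pair B). Each ploidy was 1 strain, so that ploidy and any other difference between these strains cannot be told apart.

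In respiration, NADH and succinate pass electrons through ubiquinone to the cytochrome bc1 complex (complex III), then through cytochrome c to cytochrome oxidase (complex IV), and the proton gradient made on the way drives ATP synthase. Budding yeast has no proton-pumping complex I and uses single-subunit NADH dehydrogenases instead. Complexes III, IV and the ATP synthase also hold subunits encoded by mitochondrial DNA, which were not among these genes. Budding yeast growing on glucose mostly ferments, and many respiratory genes are held low by glucose and activated by the Hap2/3/4/5 complex when it runs out.

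The libraries held from 3612527 to 4133193 reads on ORFs, of which 37.0% to 43.7% fell in ORFs annotated within the ribosomal DNA repeats. Counts were scaled with edgeR's TMM factors, and the levels given here are TMM-scaled CPM, reads of a gene per 1000000 reads on ORFs. For ploidy, edgeR's quasi-likelihood F test was run with a term for the pair (the block). Its p-values were adjusted by Benjamini-Hochberg over 5680 genes, those reaching 15 reads in a library of pair A and in a library of pair B. A gene with an adjusted p under 0.05 was called. Log2 fold changes are tetraploid over haploid unless stated otherwise, and SE is their standard error. As bulk RNA, the libraries give shares only, so that less RNA of a gene per cell and fewer cells with that RNA cannot be told apart. With the block, the p-values measure how far the ploidy differences of pair A and pair B disagreed, with the spread moderated over all genes. They do not measure the full spread between the 2 cultures of a strain. The a-cell markers MFA1, MFA2, STE2, STE6, BAR1 and AGA2 had at least 32 reads in every library, while the alpha-cell markers MFALPHA1 and MFALPHA2 had at most 13 reads and STE3 had 28 to 32. All 6 a-cell markers were called lower in tetraploids (log2 fold change -2.43 to -1.59).

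All 43 genes were read in every library. Together they took 0.349% of the ORF reads in haploid A, 0.363% in haploid B, 0.432% in tetraploid A and 0.542% in tetraploid B. Outside the ribosomal DNA ORFs, the shares were 0.619%, 0.639%, 0.733% and 0.860% in the same order. After TMM scaling the summed level was 4150 CPM in haploid A, 3721 in haploid B, 4195 in tetraploid A and 4573 in tetraploid B. On that scale pair A differed by 0.02 (log2, tetraploid over haploid) and pair B by 0.30.

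Levels per kb of coding sequence differed widely among the members. COX5A, the aerobic isoform of cytochrome oxidase subunit 5, had the highest mean level over the 4 libraries, 415 CPM per kb, followed by QCR6 (387), QCR7 (344) and ATP2 (343). At the other end were NDE2 with 1.44 CPM per kb, COX5B with 7.87, STF1 with 15.8, ATP20 with 33.3 and CYC7 with 34.3. The median of the 5297 tested genes with a known coding length was 23.4 CPM per kb. By complex, the median level per kb was 247 for complex IV, 203 for complex III, 158 for the stator and membrane part of ATP synthase, 153 for its F1 part and 91.4 for complex II. NDE2, COX5B and STF1 were the only members whose mean level was below the median of all genes, and they were also the 3 members that missed the read minimum, which left 40 members in the test.

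**Figure D1:**
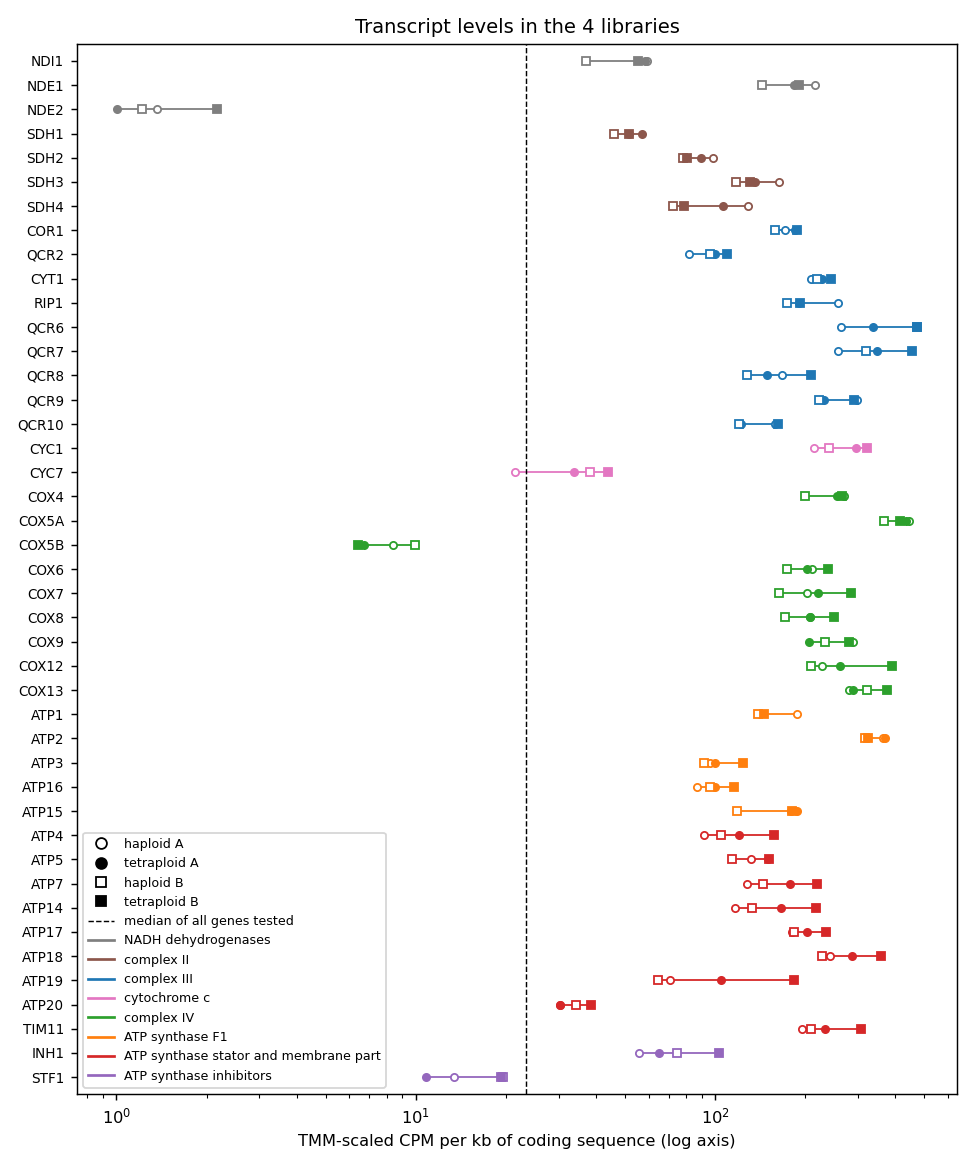
Transcript levels of all 43 members in the 4 libraries, as TMM-scaled CPM per kb of coding sequence on a log axis, with open symbols for haploids, filled symbols for tetraploids, circles for pair A and squares for pair B. The dashed line is the median of all genes tested (23.4 CPM per kb), and NDE2, COX5B and STF1 lie to its left in every library, as does CYC7 in haploid A.

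By ploidy, 7 of the 40 members tested were called higher in tetraploids and 0 lower, which is 17.5% higher against 2.52% of all genes tested, and 0 lower against 5.35%. At an unadjusted p under 0.05 the same test had 11 members higher (27.5%, against 10.6% of all genes) and 0 lower (against 14.2%). The 7 genes were QCR7 of complex III, the cytochrome c gene CYC1, COX12 of complex IV, and ATP4, ATP7, ATP14 and ATP19 of ATP synthase. Their log2 fold changes lay between 0.44 and 1.08, a fold of 1.36 to 2.11. Over the 40 members the median was 0.24 (range -0.17 to 1.08), against 0.01 for all genes tested, and 34 members (85.0%) were above 0 against 51.1% of all genes. In 25 members (62.5%, against 34.6% of all genes) the tetraploid was higher in both pairs, and in 0 (against 33.7%) it was lower in both.

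These calls rested on the pairing and on the tool. Without the pair as a block, 0 of the 40 members were called by edgeR (7 higher at an unadjusted p under 0.05, 17.5% of members against 3.61% of all genes), and of all genes 0.0704% were called higher and 0.317% lower. DESeq2 with the block gave an adjusted p to 33 of the 40 members, not to ATP19. It called 0 of the 33 (7 of 40 higher at an unadjusted p under 0.05), whereas limma-voom with the block called 7. Of all genes, DESeq2 called 23 higher and 133 lower among the 2156 given an adjusted p. By limma-voom 154 were called higher and 369 lower of 5680. Over the alternative settings the adjusted p of the 7 genes, in the order named, ran upwards from 0.00795, 0.0103, 0.00461, 0.00902, 0.00483, 0.00167 and 3.31e-05 to 0.999. Across all genes, the differences between the haploids of the pairs and those between the tetraploids of the pairs correlated at r = 0.53. Over the members, however, the medians of these differences (B over A, log2) had opposite signs, -0.15 for the haploids and 0.25 for the tetraploids.

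**Figure D2:**
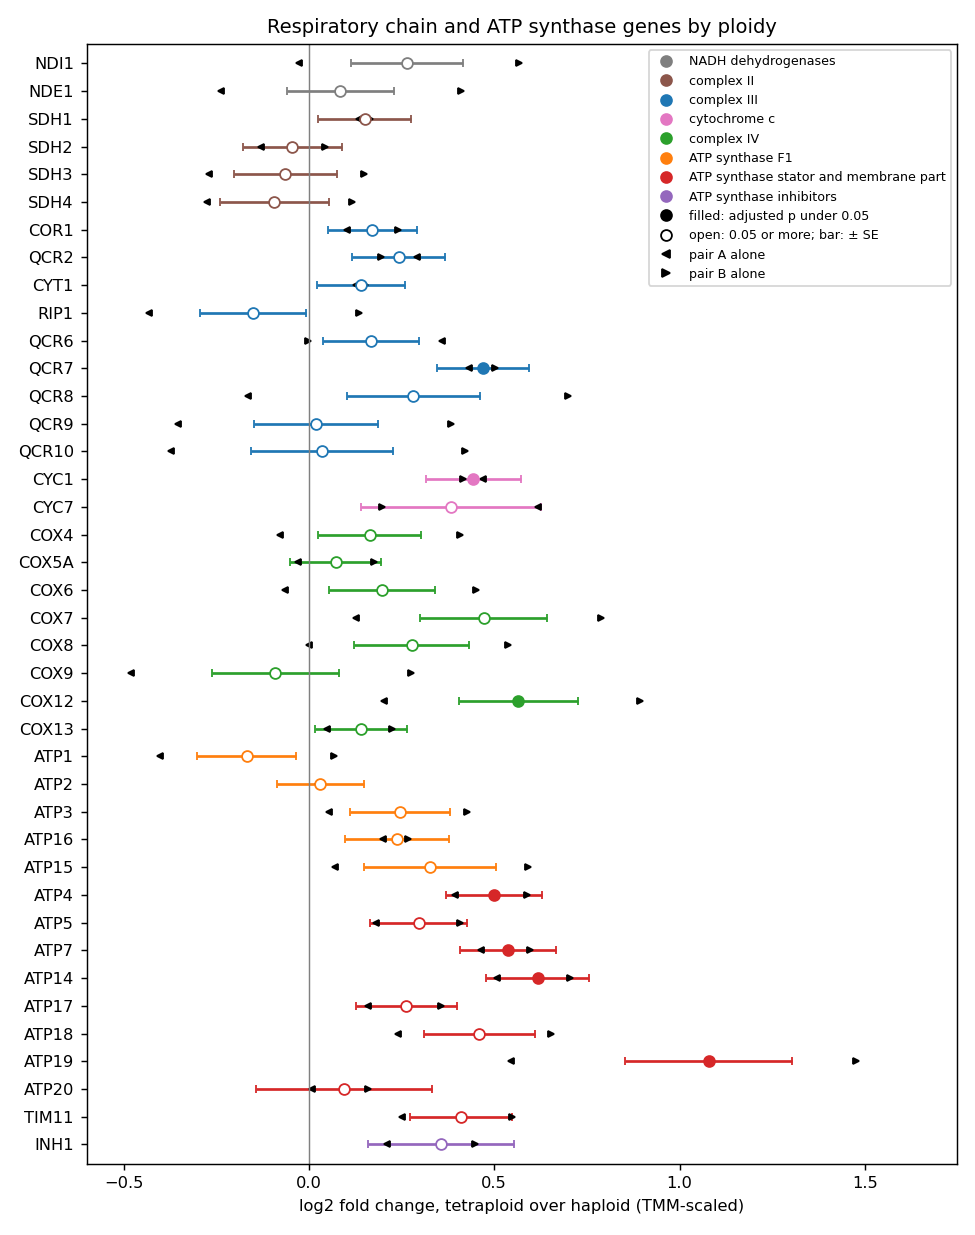
Log2 fold change, tetraploid over haploid, of the 40 members tested, ordered along the chain, with bars of ± 1 standard error from the fit and filled circles for an adjusted p under 0.05. Triangles give pair A alone and pair B alone. The 7 called members lie between 0.44 and 1.08, and the lowest member, ATP1, lies at -0.17.

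The NADH dehydrogenases feed electrons into the chain, NDI1 from the matrix and NDE1 and NDE2 from the cytosolic side of the inner membrane. NDI1 (YML120C) had 91.1 CPM in haploid A, 57.1 in haploid B, 89.5 in tetraploid A and 84.8 in tetraploid B. Its ploidies overlapped, since haploid A was above both tetraploids, while haploid B alone was low. The log2 fold change was 0.26 (SE 0.15, adjusted p = 0.290 by edgeR). NDE1 (YMR145C) had 363, 242, 308 and 321 CPM in the same order, with haploid A highest and haploid B lowest, and a log2 fold change of 0.08 (SE 0.14, adjusted p = 0.762 by edgeR). For both genes pair A and pair B went opposite ways, -0.03 and 0.57 for NDI1 and -0.24 and 0.41 for NDE1. NDE2 (YDL085W), the second external enzyme, had 7 reads in each haploid, 7 in tetraploid A and 17 in tetraploid B. It made up 0.532% to 1.09% of the reads of the NDE genes, and the exact (Clopper-Pearson) 95% intervals of the 4 libraries, from 0.214% to 1.74% in all, overlapped. Such intervals cover counting error only.

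Succinate dehydrogenase (complex II) links the tricarboxylic acid cycle to the chain, with the flavoprotein Sdh1, the iron-sulfur protein Sdh2 and the membrane anchors Sdh3 and Sdh4. It had the lowest median log2 fold change of the complexes, -0.05, with 3 of 4 genes below 0 (51.1% of all genes were above 0). By edgeR 0 of the 4 were called, and 0 had an unadjusted p under 0.05. SDH1 (YKL148C) had 99.4 CPM in haploid A, 88.3 in haploid B, 109 in tetraploid A and 99.0 in tetraploid B. Its log2 fold change of 0.15 (SE 0.13, adjusted p = 0.495 by edgeR) was the highest of the complex, and its ploidies overlapped. SDH4 (YDR178W) had 70.1, 39.5, 57.8 and 42.8 CPM in the same order. Here both libraries of pair B lay below both of pair A, and the ploidy difference was -0.09 (SE 0.15, adjusted p = 0.738 by edgeR). SDH2 and SDH3 differed by -0.04 and -0.06 between ploidies.

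The cytochrome bc1 complex takes electrons from ubiquinol and hands them to cytochrome c. Of its 9 genes, 8 had a log2 fold change above 0 (against 51.1% of all genes), and the median was 0.17. By edgeR 1 was called higher (against 2.52% of all genes). QCR7 (YDR529C), a small subunit of the complex, had 98.5 CPM in haploid A, 123 in haploid B, 133 in tetraploid A and 174 in tetraploid B. Both tetraploids were above both haploids, and the means were 111 ± 17.1 CPM in haploids and 153 ± 28.9 in tetraploids (SD, n = 2). By edgeR the ploidies differed by 0.47 on the log2 scale (SE 0.12, adjusted p = 0.0300), 0.43 and 0.50 in the pairs, and the adjusted p was 0.551 without the block.

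The catalytic subunits of complex III showed smaller differences. CYT1, cytochrome c1, had a log2 fold change of 0.14 (adjusted p = 0.509 by edgeR), with 194 and 203 CPM in haploids A and B against 212 and 226 in tetraploids A and B. RIP1 (YEL024W), the Rieske iron-sulfur protein, was the lowest of the complex at -0.15 (SE 0.14, adjusted p = 0.551 by edgeR). It had 166 CPM in haploid A, 113 in haploid B, 123 in tetraploid A and 124 in tetraploid B, so that haploid A stood above the other libraries. The core subunits COR1 and QCR2 had 0.17 and 0.24, and in both the tetraploids were above the haploids without overlap (as in 21.9% of all genes). QCR8, QCR9 and QCR10, with 0.28, 0.02 and 0.04, were lower in tetraploid A than in haploid A and higher in tetraploid B than in haploid B.

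QCR6 (YFR033C), the acidic subunit of complex III, varied by pair. It had 117 CPM in haploid A and 150 in tetraploid A, against 210.3 and 209.8 in the haploid and tetraploid of pair B. The ploidy difference was 0.17 (SE 0.13, adjusted p = 0.455 by edgeR). It was the 1 tested member on chromosome VI, whose 102 tested genes had a median log2 fold change of -0.39 between ploidies.

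Cytochrome c carries electrons from complex III to complex IV, as the aerobic isoform Cyc1 or the hypoxic isoform Cyc7. CYC1 (YJR048W) had 70.4 CPM in haploid A, 79.5 in haploid B, 97.8 in tetraploid A and 106 in tetraploid B. All tetraploid values were above all haploid values, 75.0 ± 6.40 against 102 ± 5.93 CPM (SD, n = 2), and the pairs gave similar differences of 0.47 and 0.42. The log2 fold change was 0.44 (SE 0.13, adjusted p = 0.0452 by edgeR with the block and 0.517 without it). CYC7 (YEL039C) had 7.33, 13.1, 11.5 and 15.04 CPM in the order haploid A, haploid B, tetraploid A, tetraploid B, with a log2 fold change of 0.38 (SE 0.24, adjusted p = 0.350 by edgeR). Its ploidies overlapped. CYC7 took 9.43% and 14.1% of the cytochrome c reads in haploids A and B and 10.5% and 12.4% in tetraploids A and B, with exact 95% intervals that all shared the range from 10.5% to 13.7%.

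Cytochrome oxidase reduces oxygen to water. Of its 9 listed genes 8 were tested, with a median log2 fold change of 0.18. Of these, 7 were above 0 (against 51.1% of all genes) and 1 was called higher (against 2.52%). COX12 (YLR038C), a small subunit on the intermembrane-space side, had 57.4 CPM in haploid A, 52.5 in haploid B, 66.0 in tetraploid A and 98.0 in tetraploid B. The groups did not overlap, and tetraploid B stood above the other 3 libraries. Its means were 54.9 ± 3.43 CPM in haploids and 82.0 ± 22.6 in tetraploids (SD, n = 2), and the log2 fold change was 0.57 (SE 0.16, adjusted p = 0.0423 by edgeR with the block and 0.520 without it). The cultures of pair A gave 0.20 and those of pair B 0.89.

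COX9 (YDL067C), another small subunit, was the lowest of complex IV. It had 51.9 CPM in haploid A, 41.7 in haploid B, 37.1 in tetraploid A and 50.6 in tetraploid B, with overlap between the ploidies (log2 fold change -0.09, SE 0.17, adjusted p = 0.783 by edgeR). COX7 and COX8 had 0.47 and 0.28, with both tetraploids above both haploids (as in 21.9% of all genes). However, COX8 differed by 0.00 in pair A and 0.54 in pair B. COX4, COX6 and COX13 had 0.16, 0.20 and 0.14.

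Subunit 5 of cytochrome oxidase comes as the aerobic isoform Cox5a or the hypoxic isoform Cox5b. COX5A (YNL052W) had 205 CPM in haploid A, 169 in haploid B, 201 in tetraploid A and 191 in tetraploid B, a log2 fold change of 0.07 (SE 0.12, adjusted p = 0.758 by edgeR). COX5B (YIL111W) had 12 and 16 reads in haploids A and B and 13 and 14 in tetraploids A and B. Per coding length, COX5A was 53.0 and 36.8 times COX5B in the haploids and 65.0 and 64.4 times in the tetraploids. COX5B made up 1.83% and 2.61% of the subunit 5 reads in haploids and 1.496% and 1.51% in tetraploids. Both tetraploid shares were thus below both haploid shares, as were the COX5B levels, 3.05 and 2.93 CPM against 3.82 and 4.54. The exact 95% intervals of the 4 libraries, from 0.799% to 4.21% in all, overlapped, and with so few reads the ploidy difference was not tested. In neither ploidy was a hypoxic isoform the main transcript.

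ATP synthase uses the proton gradient to make ATP in its F1 head, which is held by a peripheral stalk (the stator) to the membrane part. The division of its genes into these parts follows their known place in the enzyme and was made after their counts were seen. Over its 14 subunit genes the median log2 fold change was 0.31, and for 13 the tetraploid had the higher level in pair A as well as in pair B. The 5 genes of the F1 head had a median of 0.24, with 0 called by edgeR and 0 at an unadjusted p under 0.05. The 9 genes of the stator and membrane part had a median of 0.46, and 4 were called higher (against 2.52% of all genes). All 9 were above 0 in both pairs (against 34.6%), ATP20 barely so in pair A. No test was made of the difference between these parts. Summed over genes, the F1 part had 1029 CPM in haploid A, 868 in haploid B, 976 in tetraploid A and 942 in tetraploid B, with overlap. The stator and membrane part had 444, 458, 553 and 685 CPM in the same order, without overlap.

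In the F1 head, the catalytic beta subunit gene ATP2 (YJR121W) had the highest level per kb. It had 557 CPM in haploid A, 485 in haploid B, 567 in tetraploid A and 498 in tetraploid B, with a log2 fold change of 0.03 (SE 0.12, adjusted p = 0.899 by edgeR). ATP1 (YBL099W), which encodes the alpha subunit, was the lowest of the 40 members at -0.17 (SE 0.13, adjusted p = 0.469 by edgeR). Its levels were 306 CPM in haploid A, 228 in haploid B, 232 in tetraploid A and 239 in tetraploid B, with haploid A alone high. The gamma, delta and epsilon genes ATP3, ATP16 and ATP15 had 0.25, 0.24 and 0.33, and none was called. In each, both tetraploids were above both haploids (as in 21.9% of all genes).

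In the stator, which is part of the group of 9 genes above, 3 of 4 genes were called higher (against 2.52% of all genes). ATP4 (YPL078C), subunit b, had 67.2 CPM in haploid A, 76.6 in haploid B, 88.6 in tetraploid A and 116 in tetraploid B, a log2 fold change of 0.50 (SE 0.13, adjusted p = 0.0300 by edgeR). ATP7 (YKL016C), subunit d, had 67.2, 75.8, 93.1 and 115 CPM in the same order, a log2 fold change of 0.54 (SE 0.13, adjusted p = 0.0191 by edgeR). In ATP4 and ATP7 alike, haploid A was the lowest library and tetraploid B the highest. ATP14 (YLR295C), subunit h, had 43.7, 49.7, 62.3 and 81.3 CPM, a log2 fold change of 0.62 (SE 0.14, adjusted p = 0.0138 by edgeR). In each of these genes both tetraploids were above both haploids (as in 21.9% of all genes). The pairs gave 0.40 and 0.59 for ATP4, 0.47 and 0.60 for ATP7, and 0.51 and 0.70 for ATP14. Without the block the adjusted p was 0.520 for ATP4, 0.509 for ATP7 and 0.492 for ATP14. The fourth stator gene, ATP5, which encodes the oligomycin sensitivity-conferring protein, had 84.5 and 72.7 CPM in haploids A and B and 95.9 and 96.5 in tetraploids A and B (log2 fold change 0.30, adjusted p = 0.171 by edgeR).

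In the membrane part, ATP19 (YOL077W-A), subunit k, had the highest log2 fold change of the 40 members, 1.08 (SE 0.23, adjusted p = 0.00848 by edgeR with the block and 0.428 without it). Its counts were low: 46 reads in haploid A, 47 in haploid B, 92 in tetraploid A and 182 in tetraploid B, or 14.7, 13.3, 21.6 and 38.0 CPM. The haploids were close to each other, while tetraploid B was well above tetraploid A (mean 29.8 ± 11.6 CPM, SD, n = 2), and the ploidies did not overlap. Pair A alone gave 0.54 and pair B alone 1.48. TIM11 (subunit e) and ATP18 (subunit i/j) had 0.41 and 0.46, with adjusted p-values of 0.0781 and 0.0706 by edgeR, and ATP17 and ATP20 had 0.26 and 0.09. ATP20, subunit g, which associates with subunit e in ATP synthase dimers, was lower per coding length than TIM11 in every library, at 30.2 to 38.4 CPM per kb against 195 to 306.

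Inh1 and Stf1 are small proteins that bind the F1 part and inhibit ATP hydrolysis. INH1 (YDL181W) had 14.3 CPM in haploid A, 19.3 in haploid B, 16.7 in tetraploid A and 26.5 in tetraploid B, with overlap between ploidies and a log2 fold change of 0.36 (SE 0.20, adjusted p = 0.275 by edgeR). STF1 (YDL130W-A) had 11 and 18 reads in haploids A and B and 12 and 24 in tetraploids A and B. Its share of the reads of both inhibitor genes was 14.5% to 20.9%, with exact 95% intervals that overlapped.

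**Figure D3:**
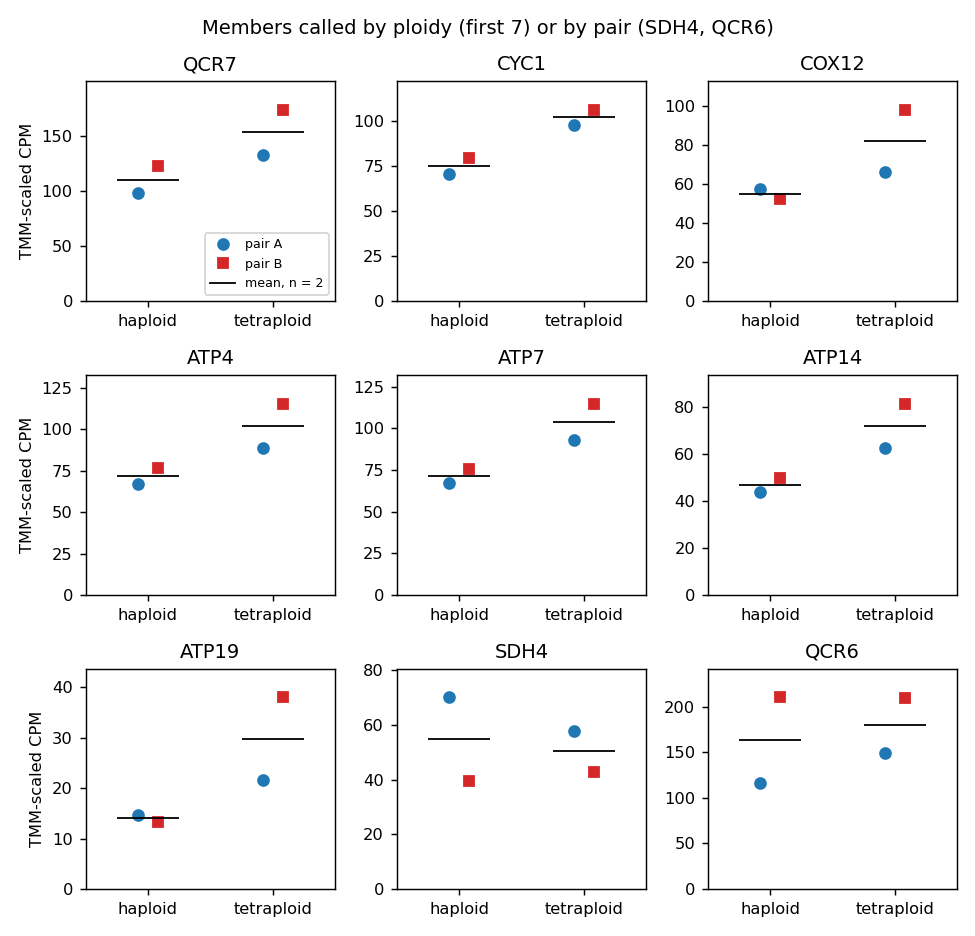
TMM-scaled CPM in each library for the 7 members called by ploidy and for SDH4 and QCR6, called by pair, with circles for pair A, squares for pair B and bars for the mean of 2 cultures. In QCR7, CYC1, COX12, ATP4, ATP7, ATP14 and ATP19 both tetraploid libraries lie above both haploid libraries, while SDH4 and QCR6 separate by pair.

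The size of the ploidy difference was not the same in the pairs. Over the 40 members the median in pair A was 0.09 on the log2 scale and that in pair B was 0.41, with 0.01 and 0.00 for all genes tested. Haploid B was below haploid A in 25 of 40 members (median -0.15, against 0.03 for all genes), and tetraploid B was above tetraploid A in 32 of 40 (median 0.25, against 0.00). As a result tetraploid B held the highest of the 4 values for 25 members (62.5%, against 29.3% of all genes) and haploid B the lowest for 24 (60.0%, against 18.9%). Tetraploid A was the highest library for 3 members. Without tetraploid B, the median over the members was 0.12, and without haploid B it was 0.18. In 19 of 40 members (47.5%) both tetraploid libraries were above both haploid libraries, against 21.9% of all genes, and in 0 both were below, against 20.5%.

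The pair difference itself was tested with the ploidy in the fit. Of the 40 members, 1 was called higher in pair B and 1 lower, against 3.15% and 6.34% of all genes tested. In 5 members both libraries of pair B were above both of pair A (12.5%, against 21.2% of all genes), and in 7 both were below (17.5%, against 19.7%). QCR6 had a log2 fold change of 0.66 for pair B over pair A (SE 0.13, adjusted p = 0.00494 by edgeR), and SDH4 had -0.62 (SE 0.15, adjusted p = 0.0151 by edgeR). Among the alternatives that kept all libraries, SDH4 was called only with length offsets. QCR6 was called in each of them but the fit with no ploidy term. The median over the members was 0.08. Of 40 members 24 were above 0 (against 51.5% of all genes), and all 4 genes of complex II and both tested NADH dehydrogenases were below 0. What differed between the pairs of cultures is not given in the sources used here.

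The ploidy difference of all genes varied with coding length, with no steady order over the length classes. The members were short, with a median of 446 coding bases against 1269 for the tested genes, and 24 of the 40 had under 500. Of all tested genes under 500 bases, the median log2 fold change was 0.09 (648 genes), and for the members in that class it was 0.28. From 500 to under 1000 bases the medians were 0.03 for 1323 genes and 0.14 for 9 members, and from 1000 to under 2000 bases they were -0.03 for 2069 genes and 0.15 for 7 members. In the class of 2000 bases or more, which held 0 members, the median was again 0.03 (1257 genes). With offsets for coding length in the fit, 5 of the 7 calls stayed (COX12, ATP4, ATP7, ATP14 and ATP19), QCR7 and CYC1 had adjusted p-values of 0.0582 and 0.0970 by edgeR, and the median over the members was 0.17. What part length had in the result was not tested further.

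**Figure D4:**
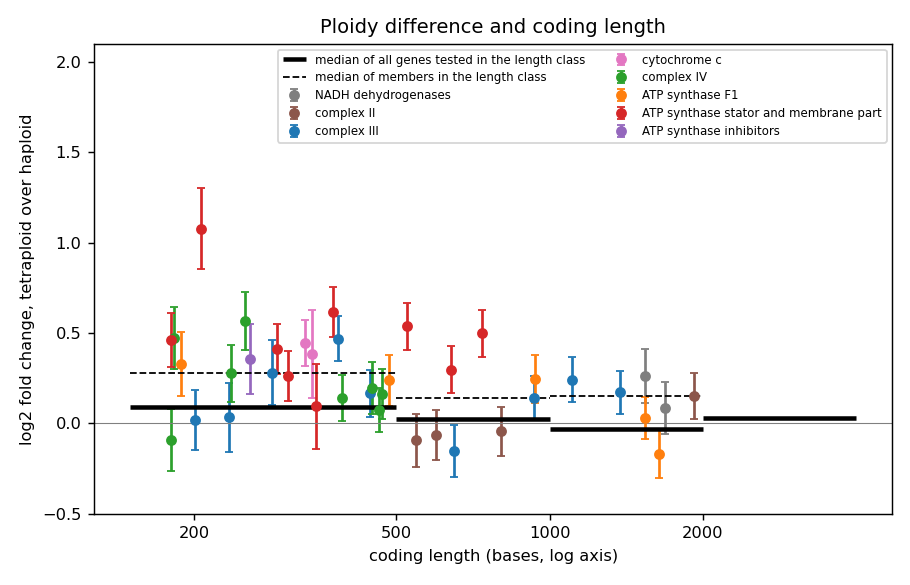
Log2 fold change, tetraploid over haploid, with ± 1 standard error against coding length on a log axis for the 40 members tested. Thick lines give the median of all tested genes in each length class (0.09 under 500 bases, 0.03 from 500, -0.03 from 1000 and 0.03 from 2000, this class being open to the right), and dashed lines the median of the members (0.28, 0.14 and 0.15).

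Genes that act around the chain were taken as lists. Of 56 tested genes for assembly and expression of the complexes, 3 were called higher and 1 lower (against 2.52% and 5.35% of all genes). At an unadjusted p under 0.05, 16 were higher and 1 lower (against 10.6% and 14.2% of all genes), and the median log2 fold change was 0.22. FMC1, which acts in assembly of the ATP synthase F1 part at high temperature, had 20 and 32 reads in haploids A and B and 50 and 92 in tetraploids A and B (log2 fold change 1.00, adjusted p = 0.0212 by edgeR). CMC2, a protein of the intermembrane space needed for cytochrome oxidase, had 18 and 33 reads in haploids against 61 and 78 in tetraploids (1.01, adjusted p = 0.0232 by edgeR). Both are among the genes the study picked as induced from these same libraries, as are CBP6 and SDH6 (YDR379C-A) of this list. CBP6 and SDH6 were not called here (log2 fold change 1.09 and 0.90, adjusted p = 0.0799 and 0.152 by edgeR). COX17, a copper carrier for cytochrome oxidase, had 15.6 and 29.0 CPM in haploids A and B and 24.4 and 44.9 in tetraploids A and B, with overlap (0.64, adjusted p = 0.0339 by edgeR). RCF2, which associates with complexes III and IV, was lower, with 116 and 114 CPM in haploids against 76.1 and 90.7 in tetraploids (-0.47, adjusted p = 0.0406 by edgeR). Without the block FMC1, CMC2, COX17 and RCF2 were not called, with adjusted p-values of 0.455 to 0.625 by edgeR.

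The regulators of respiratory genes gave 0 calls by edgeR among 11 genes. In the same test 3 were lower (against 14.2% of all genes) and 0 higher (against 10.6%) at an unadjusted p under 0.05. The median log2 fold change was 0.01. HAP4, the glucose-repressed activating subunit of the Hap complex, had 60.6 CPM in haploid A, 70.1 in haploid B, 64.1 in tetraploid A and 67.3 in tetraploid B (0.01, SE 0.13, adjusted p = 0.974 by edgeR). Of 11 ubiquinone synthesis genes 0 were called by edgeR (median -0.06). At an unadjusted p under 0.05, 1 was higher and 2 were lower (against 10.6% and 14.2% of all genes). Of 5 other electron donors to the chain 0 were called (0 at an unadjusted p under 0.05, median 0.22). Among 7 carriers of ADP, ATP and phosphate 1 was called lower (against 5.35% of all genes), the copper and phosphate carrier gene PIC2 (-0.86, adjusted p = 0.0129 by edgeR with the block and 0.676 without it). It had 79.4 and 36.7 CPM in the haploid and tetraploid of pair A and 14.8 and 11.7 in those of pair B, with overlap between ploidies, and differed more between pairs (-2.05) than between ploidies. Of the 5 tested genes of other isoform pairs that respond to oxygen, 0 were called by ploidy (median -0.20). At an unadjusted p under 0.05, 1 was lower (against 14.2% of all genes).

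The scaling of the libraries set how many members were called. When libraries were scaled by total counts, the median of all genes moved to 0.30 on the log2 scale, and 26 members were called higher and 0 lower, with all 40 above 0. Across all genes the calls were then 1168 higher and 115 lower, against 143 and 304 with TMM factors. Relative to the median of all genes, the median over the members was 0.23 under both scalings. A scaling factor moves all genes of a library alike, so this value could hardly change and is no separate result.

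**Figure D5:**
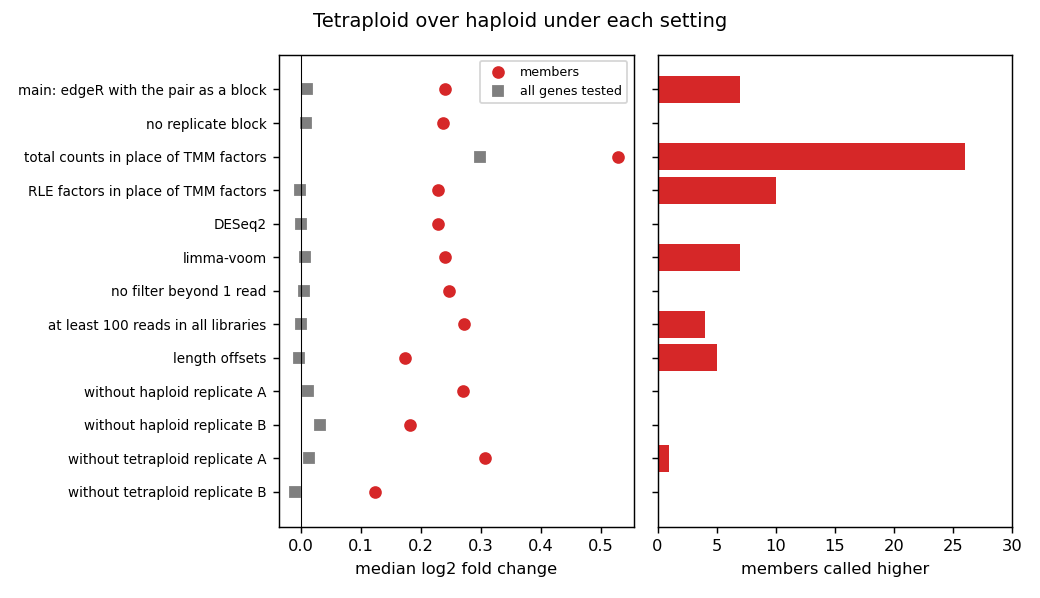
Median log2 fold change, tetraploid over haploid, of the members and of all genes tested (left) and number of members called higher (right) under each setting. The members' median lies above that of all genes in every setting shown, by 0.13 (without tetraploid replicate B) to 0.29 (without tetraploid replicate A). Settings that change only the scaling factors could hardly alter that distance. The number of calls runs from 0 to 26.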

How the data were processed

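The authors sequenced poly(A) cDNA libraries for 36 cycles, used Bowtie for mapping to the Sigma 1278b genome, and deposited raw counts of reads for each ORF, not normalized. Unique mappings were used for differential expression, so stretches shared by paralogs give no reads. ORFs not listed for a library were taken as 0 counts. Names and coding lengths came from the R64 annotation of another strain (5754 of 6348 ORFs named, all 43 members), and no coordinates are given. No member overlaps another gene of that annotation, and ORFs without an R64 name could not be placed.

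Counts were analysed with R 4.3.3, with edgeR 4.0.16 (quasi-likelihood F test), DESeq2 1.42.0 and limma 3.58.1. Standard errors were taken as |log2 fold change| over the root of the F statistic. Single-pair values used a prior count of 2. The pair was a block because the study compares its libraries within pairs and the labels give both ploidies the letters A and B. The biological coefficient of variation was 0.0858 with the block and 0.182 without. Depth ran from 3612527 to 4133193 reads, and low genes have wide errors. The fit was tested on simulated data. Members and lists were chosen with earlier results of these data known. Named in full are called members, the isoform pairs, and the highest and lowest member of each complex, with ATP2, CYT1 and others named after their values were seen. A result for 1 of the gene lists is not reported here. No sequences are printed, as no genome of the files' build was used. Alternatives were no block, other scalings, tools and filters, length offsets, and each library left out.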

Additional observations from a re-analysis of the deposited data

How the results depend on the processing

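Against 7 members called higher in tetraploids, edgeR called 0 with no replicate block, 0 with no filter beyond 1 read, 4 of 34 with at least 100 reads in all libraries, and 26 with total counts, while DESeq2 called 0 of the 33 it gave an adjusted p. RLE factors (10 calls), limma-voom (7) and length offsets (5) stayed within 1.5 times. Calls over all genes changed too, from 143 higher of 5680 in the main fit. There were 4 higher with no block, 12 of 6348 with no filter and 52 of 2384 at 100 reads. Total counts gave 1168, DESeq2 23, RLE factors 262, limma-voom 154 and length offsets 182 of 5297. No alternative called a member lower in tetraploids. The median over the members was 0.53 with total counts and between 0.17 and 0.27 under the other settings over all 4 libraries. With each library left out in turn and no block, 0 to 1 members were called higher (1 without tetraploid A) and the median ran from 0.12 to 0.31. The 7 called members were above 0 in every alternative that gave them a value. For the pair difference, against 1 member called higher and 1 lower, total counts gave 7 and 0 and the fit with no ploidy term 0 and 0. DESeq2 gave 1 and 0 of 36, and the filter at 100 reads 1 and 0. Over all genes these 4 settings gave, in the same order, 533 and 130, 0 and 7, 12 and 166, and 47 and 159. Leaving out libraries gave 0 to 1 higher and 0 lower. The median over the members then ran from -0.22 (without tetraploid B) to 0.27, and relative to all genes from -0.22 to 0.26. Length offsets for this contrast were added after the data were seen and gave 1 and 1. The causes were not tested. With 2 cultures a ploidy, the smallest fold called among the members was 1.36.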
